A study of Mus musculus with 12 samples.

Results

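The insulin-like growth factor (IGF) genes *Igf1*, *Igf1r*, *Igf2r*, *Igfbp2*, *Igfbp3*, *Igfbp4*, *Igfbp5*, *Igfbp7* and *Igfbpl1* were followed through the developing mouse cochlea. They are 9 of the 24489 gene columns of the deposited count table and were taken by name, as 1 ligand, 2 receptors and 6 binding proteins of the family. All 9 passed the filter on low counts in each of the 10 comparisons described here.

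The study sorted tdTomato-positive single cells from the cochlea at 5 embryonic stages (E14.5 to E18.5, a day apart) and at P3 and sequenced them with Smart-seq2, a full-length method, in 384-well plates. Each plate is 1 sample: E16.5 has 3 plates, E17.5 has 1 and each of the other stages has 2. The labels give the genotype PVcre;Ai14 for 11 plates and TrkCcre for E14.5 replicate 2. The study's methods name *Ntrk3* Cre for E14.5, so the driver of E14.5 replicate 1 is given differently in the labels and the methods. No group carried a treatment, and no plate differs from another by a mutation named in the labels. Cre in these lines follows parvalbumin or TrkC, and the sort was gated on the reporter. The study takes its otic mesenchyme cluster as a likely contaminant of the sort. The proportions of cell types therefore reflect the reporter, the gate and any contaminants. Cells of several embryos or pups were pooled on a plate, and p-values measure the spread between plates.

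The filter in the study's methods, applied here, kept 4226 of the 4608 wells on the 12 plates as cells. The study itself reports fewer cells in its own analysis. A plate carried 80997594 to 303906928 counts in all. Clusters were named from marker genes as SGN-like (spiral ganglion neurons, 2211 cells), glia-like (1228), OM-like (otic mesenchyme, 558), HC-like (hair cells, 27), cochlear epithelium-like (37) and immune-like (17), and 148 cells stayed unnamed. The 9 genes took no part in the clustering, and p-values between classes take the clusters as given. Counts were summed over the cells of a class on a plate and are given as CPM (counts of a gene scaled to the same total in every sum): less RNA of a gene and more RNA of other genes cannot be told apart. No 2 kept cells had the same counts (0 pairs).

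The plates fall into series. Both E14.5 and both E15.5 plates, E16.5 replicate 3 and the E17.5 plate are of series SS2_20, E16.5 replicates 1 and 2 of SS2_18, E18.5 of SS2_19 and P3 of SS2_15, and median genes per cell were 4691 to 4983 on SS2_20 plates and 8426 to 9629.5 on the others. Off the SS2_20 plates, a plate held at most 37 glia-like and 11 OM-like cells. The glia-like sums of E16.5 replicates 1 and 2 held 8465 and 9848 CPM of the 12 SGN markers, against 205 to 350.2 CPM on the SS2_20 plates, and the OM-like sum of E16.5 replicate 2 held 9975 CPM. Classes were therefore compared on the 6 SS2_20 plates, within plate. There, the 10 glial markers summed to 10972 to 19557 CPM in glia-like cells, and the 12 OM markers summed to 8656 to 21631 CPM in OM-like, 3083 to 6390.1 CPM in glia-like and 29.6 to 350.1 CPM in SGN-like cells.

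IGF1 and IGF2 are secreted growth factors that act through IGF1R, a receptor tyrosine kinase whose adaptors feed the PI3K-AKT and MAPK pathways. IGF2R takes up IGF2 and carries it to the lysosome. IGF binding proteins hold the ligands outside the cell and can store, carry or withhold them, and proteases such as PAPP-A cut some of them and set the ligand free. IGFBP7 binds IGFs weakly, and *Igfbpl1* encodes a protein that resembles the binding proteins. Mice that lack IGF1 lose cochlear neurons and hear poorly.

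The promoters of *Igfbp3*, *Igfbp4* and *Igfbp5* are shown because these binding proteins took the most different courses in neurons: *Igfbp3* rose with age where *Igfbp4* and *Igfbp5* fell. Each is the 250 bases before the RefSeq transcription start (GRCm38.p6, the assembly behind mm10), read 5′ to 3′ on the gene's strand, with CANNTG in capitals. This is the E-box, the core letters that basic helix-loop-helix factors such as NEUROD1 can bind. As a pattern CANNTG reads the same on both strands, though the inner letters of a given site need not. *Igfbp3* lies on the minus strand at chr11:7213924-7214173, *Igfbp4* on the plus strand at chr11:99040994-99041243 and *Igfbp5* on the minus strand at chr1:72874866-72875115.
Igfbp3: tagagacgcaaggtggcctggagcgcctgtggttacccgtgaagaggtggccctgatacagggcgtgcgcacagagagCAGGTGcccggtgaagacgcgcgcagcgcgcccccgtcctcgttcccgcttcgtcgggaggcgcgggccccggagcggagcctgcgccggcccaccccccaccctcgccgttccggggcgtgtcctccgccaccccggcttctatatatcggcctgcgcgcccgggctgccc
Igfbp4: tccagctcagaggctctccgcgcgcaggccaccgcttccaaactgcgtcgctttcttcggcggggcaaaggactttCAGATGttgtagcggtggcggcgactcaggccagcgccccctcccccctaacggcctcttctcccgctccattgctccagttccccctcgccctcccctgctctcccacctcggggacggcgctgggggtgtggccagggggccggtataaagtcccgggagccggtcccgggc
Igfbp5: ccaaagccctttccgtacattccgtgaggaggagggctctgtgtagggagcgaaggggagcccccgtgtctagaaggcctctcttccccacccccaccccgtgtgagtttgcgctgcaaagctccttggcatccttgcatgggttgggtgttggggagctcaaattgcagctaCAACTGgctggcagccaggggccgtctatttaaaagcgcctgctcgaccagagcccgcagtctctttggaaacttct
Each of the 3 windows held 1 CANNTG, and 66.2% of 32841 RefSeq windows of this length held at least 1. The letters TATAAA were found in the *Igfbp4* window alone among these 3 (12.4% of all windows, both strands searched), and GGGCGG in none of them (32.7%). RefSeq windows were matched for 8 of the 9 genes, and for *Igfbpl1* no promoter was printed.

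The first question was which cell class carries which gene. On the 6 SS2_20 plates the mesenchyme was above neurons for 8 of the 9 genes, and *Igfbpl1* was highest in neurons. *Igf1*, the ligand, was at 44.8 to 212 CPM (median 90.0) in OM-like cells, at 0 to 1.15 CPM (median 0.620) in SGN-like and at 0.0999 to 3.15 CPM (median 1.04) in glia-like cells. Every OM-like plate was above every SGN-like and glia-like plate for *Igf1*. The fitted difference on the log2 scale was 7.59 ± 0.98 (adjusted p = 2.55e-05) from SGN-like and 6.48 ± 0.92 (adjusted p = 0.000226) from glia-like cells by edgeR. Single cells weigh on these sums: 1 cell gave 66.3% of the *Igf1* reads of OM-like cells in E15.5 replicate 2. *Igf1* overlaps the antisense gene *Igf1os*, and counting by strand is not stated.

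Both receptors were found in all 3 classes. *Igf1r*, the signalling receptor, was at 216 to 257 CPM (median 227) in OM-like, 149 to 239.6 CPM (median 221) in glia-like and 68.8 to 201 CPM (median 128) in SGN-like cells. OM-like and glia-like plates overlapped, and their difference of 0.17 ± 0.18 (adjusted p = 0.53) did not pass the test. Both classes were above the neurons, glia-like by 0.70 ± 0.18 (adjusted p = 0.00474) and OM-like by 0.87 ± 0.18 (adjusted p = 0.0011) on the log2 scale.

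*Igf2r*, which clears IGF2, was ordered in steps. It was at 143.5 to 287 CPM (median 215) in OM-like, 59.1 to 97.7 CPM (median 81.6) in glia-like and 19.5 to 67.8 CPM (median 37.7) in SGN-like cells. Each step passed the test, OM-like over glia-like by 1.41 ± 0.18 (adjusted p = 9.94e-05) and glia-like over SGN-like by 0.95 ± 0.18 (adjusted p = 0.000595). *Airn*, an antisense gene that overlaps *Igf2r*, was at 17.95 to 52.5 CPM in OM-like cells, and its reads cannot be told from those of *Igf2r* where counting ignores strand.

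Among the binding proteins, *Igfbp2*, *Igfbp4* and *Igfbp5* led in the mesenchyme. *Igfbp4*, an inhibitory binding protein and a substrate of PAPP-A, was at 1318 to 2208 CPM (median 1684) in OM-like, 218 to 585 CPM (median 418) in glia-like and 48.4 to 233 CPM (median 138.9) in SGN-like cells. *Igfbp2* was at 719 to 1218 CPM (median 965) in OM-like cells, with 129 to 214 CPM (median 161) in glia-like and 56.3 to 295 CPM (median 169.5) in SGN-like. *Igfbp5*, a binding protein that also attaches to matrix, was at 606 to 1075 CPM (median 849.7), 116 to 249.9 CPM (median 134.97) and 71.9 to 134.9 CPM (median 119) in the same order. OM-like plates did not overlap the others for any of these genes. Over glia-like cells the differences were 2.16 ± 0.27 (adjusted p = 8.4e-05) for *Igfbp4*, 2.65 ± 0.31 (adjusted p = 5.21e-05) for *Igfbp2* and 2.39 ± 0.24 (adjusted p = 1.76e-05) for *Igfbp5*. Glia-like cells exceeded neurons in *Igfbp4*, by 1.58 ± 0.26 (adjusted p = 0.000216). *Igfbp2* differed between glia-like and SGN-like cells by -0.14 ± 0.30 (adjusted p = 0.721) and *Igfbp5* by 0.47 ± 0.23 (adjusted p = 0.106), neither past the threshold. *Igfbp5* passed below the neurons' median of glial markers at 0.91 (adjusted p = 0.00795), at Leiden resolution 2, a finer clustering, at 0.56 (adjusted p = 0.0443) and without E16.5 replicate 3 at 0.65 (adjusted p = 0.0463). OM markers were found in the glia-like sums at the levels given above, and their part in the glial values was not tested.

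*Igfbp3*, the main carrier of IGFs in blood, was shared by glia and mesenchyme. It was at 37.5 to 124 CPM (median 59.9) in glia-like, 1.05 to 109 CPM (median 66.4) in OM-like and 1.95 to 14.6 CPM (median 4.60) in SGN-like cells. All glia-like plates were above all SGN-like plates, by 3.55 ± 0.79 (adjusted p = 0.00192), and OM-like and glia-like plates overlapped. Over plates left out in turn, glia-like against SGN-like cells ran from 3.13 (adjusted p = 0.00934) (E14.5 replicate 1) to 4.19 (adjusted p = 0.00066) (E17.5). OM-like against SGN-like cells ran from 2.58 (adjusted p = 0.0392) (E15.5 replicate 2) to 3.70 (adjusted p = 0.00166) (E17.5). On all plates with 2 or more of the classes, these were 2.61 (adjusted p = 0.0102) for glia-like and 2.30 (adjusted p = 0.0356) for OM-like cells. The lowest OM-like value, E15.5 replicate 1, rests on 8 reads from 1 cell. *Igfbp7* was low in all classes, with 2.96 to 86.9 CPM (median 5.46) in OM-like, 0.661 to 6.08 CPM (median 4.40) in glia-like and 0 to 2.23 CPM (median 0.894) in SGN-like cells, and its difference of 3.89 ± 1.20 (adjusted p = 0.0148) between OM-like and SGN-like cells leans on single cells. The latter was 2.92 (adjusted p = 0.0353) without E15.5 replicate 2, 4.60 (adjusted p = 0.0178) without E14.5 replicate 2 and 4.62 (adjusted p = 0.0157) without the E17.5 plate. Glia-like against SGN-like cells gave 2.55 ± 1.05 (adjusted p = 0.0581) for *Igfbp7*, which passed by DESeq2 at 2.58 (adjusted p = 0.0096), with the reporting summary's cell filter at 4.09 (adjusted p = 0.0095) and below the neurons' median of glial markers at 3.52 (adjusted p = 0.0271). In E17.5 replicate 1, 1 cell held all 60 *Igfbp7* reads of the OM-like sum. *Igfbp7* overlaps *Polr2b* on the opposite strand.

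*Igfbpl1* went the other way. It was at 91.3 to 167 CPM (median 107) in SGN-like cells, at 0.0377 to 2.25 CPM (median 0.395) in glia-like and at 0 to 4.26 CPM (median 0.222) in OM-like cells. Neurons exceeded the other classes on every plate, with a log2 fold change of -8.01 ± 1.17 (adjusted p = 7.07e-05) for glia-like and -8.08 ± 1.23 (adjusted p = 0.000107) for OM-like against SGN-like cells. Without 1 plate these ran to -8.80 (adjusted p = 0.000199) (E14.5 replicate 2) for glia-like, and to -9.80 (adjusted p = 1.36e-05) (E16.5 replicate 3) and -7.34 (adjusted p = 0.000584) (E14.5 replicate 1) for OM-like cells. At E14.5, 63.4% of SGN-like cells had a read of *Igfbpl1*, against 0.957% of glia-like and 1.69% of OM-like cells. After thinning each cell to 100000 reads the shares were 61.4%, 0% and 0.860%. On the E16.5 plates of series SS2_18, where glia-like sums carry SGN markers, *Igfbpl1* stood at 79.8 and 76.7 CPM in glia-like cells.

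**Figure D1:**
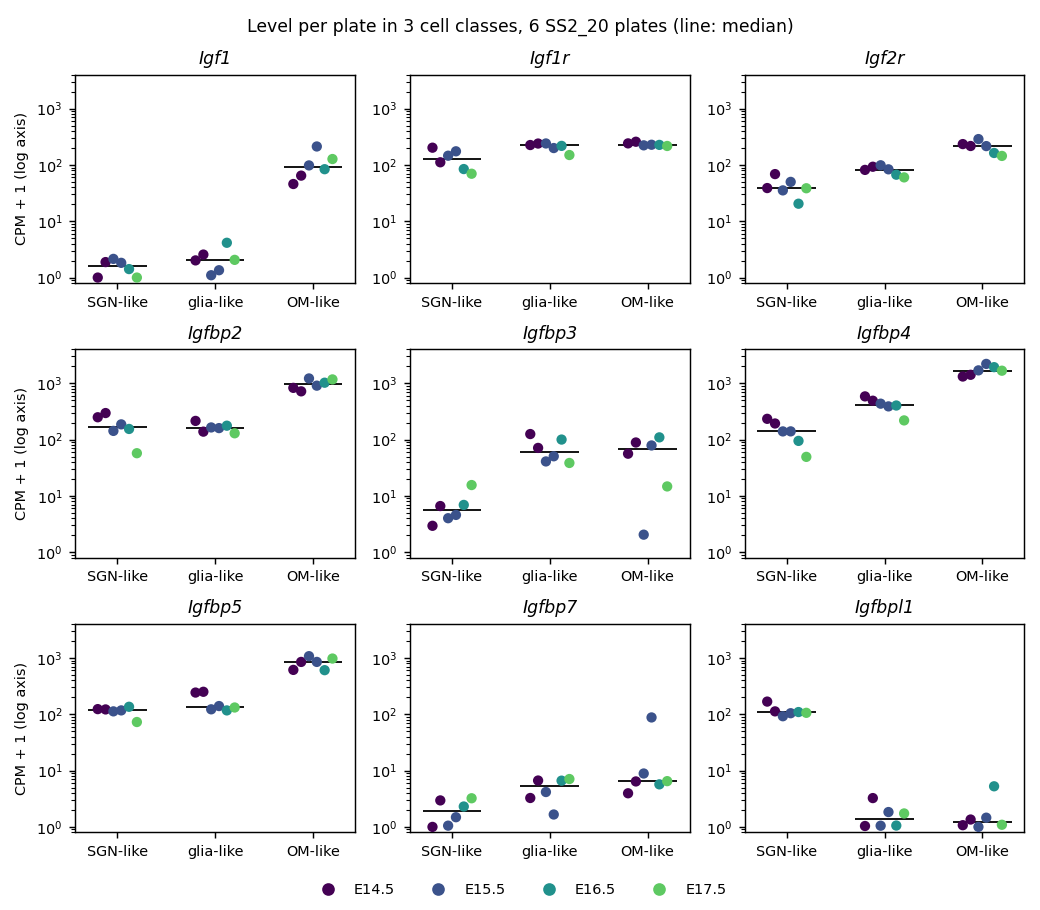
Each point is the summed CPM plus 1 (log axis) of a gene in SGN-like, glia-like or OM-like cells of 1 of the 6 SS2_20 plates, coloured by stage, with a line at the median. OM-like cells sit highest for *Igf1*, *Igf2r*, *Igfbp2*, *Igfbp4* and *Igfbp5*, while *Igfbpl1* is high in SGN-like cells alone.

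By count, OM-like against SGN-like cells gave 9 of 9 genes called, 8 higher and 1 lower, beside 27.3% higher and 25.9% lower among 16118 genes tested. The median log2 fold change of the 9 genes was 2.86, against -0.02 over all genes. For OM-like against glia-like cells 5 genes were called, all higher, beside 12.1% higher and 12% lower over all genes. For glia-like against SGN-like cells 4 were higher and 1 lower, beside 27.2% and 24.7% of all genes. The 3 comparisons share their sums, so they are not independent of each other.

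Per kilobase of annotated exon, levels can be set side by side between genes (mean ± SD over 6 plates). In OM-like cells *Igfbp2* at 529 ± 106 and *Igfbp4* at 387 ± 74.4 CPM per kb stood above *Igfbp5* at 138 ± 31.5. *Igf2r* at 22.5 ± 5.53, *Igfbp3* at 18.3 ± 13.6, *Igfbp7* at 15.6 ± 27.6, *Igf1r* at 13.8 ± 0.890 and *Igf1* at 10.5 ± 6.01 CPM per kb followed, and neighbours among these 5 lie within their spread. In SGN-like cells the order by level per kb was *Igfbp2* (97.5 ± 45.6), *Igfbpl1* (35.2 ± 8.20), *Igfbp4* (31.9 ± 14.98), *Igfbp5* (18.8 ± 3.60), *Igf1r* (7.77 ± 3.10) and *Igf2r* (4.40 ± 1.74). *Igfbpl1* and *Igfbp4* lie within their spread there. In glia-like cells *Igfbp4* (95.0 ± 27.6) and *Igfbp2* (88.2 ± 16.4) led and did not differ beyond their spread, with *Igfbp5* (27.7 ± 10.3) and *Igfbp3* (22.4 ± 11.2) next.

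The mesenchyme was not uniform. At E14.5 it fell into 7 clusters, and *Igf1* was concentrated in the one led by *Pdgfra*, *Icam1* and *Pdgfrb*, with 14 and 23 cells on the 2 plates. There *Igf1* stood at 295 and 421 CPM and was found in 78.6 and 82.6 percent of cells, against 0 to 80.6 CPM and 0 to 19.05 percent in the other 6. *Igf2*, the other ligand, is among the 10 leading genes of this cluster. *Igfbp3* was at 186 and 221 CPM there and at 0 to 218 CPM in the others, where the highest value is that of the cluster led by *Pamr1* on replicate 2. Such values are descriptions, since clusters were drawn from the same cells.

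The cluster led by *Pamr1*, *Epyc* and *Smoc2*, genes of matrix, held little *Igfbp2* and much *Igfbp5*. *Igfbp2* was at 47.4 and 11.2 CPM in its 21 and 32 cells, and at 285 to 1229.8 CPM in the other 6 clusters. *Igfbp5* was at 1398 and 1679.7 CPM there, and at 44.0 and 64.0 CPM in the cluster led by *Apod*, *Car2* and *Tbx18*. *Igfbp4* ran from 596 to 2042 CPM over the 7 clusters and both plates. The 2 E14.5 plates gave the same picture for *Igf1* and *Igfbp2*, and in the cluster led by *Matn1*, *Mia* and *Col2a1*, cartilage genes, they differed for *Igfbp5* with 529 and 58.9 CPM.

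**Figure D2:**
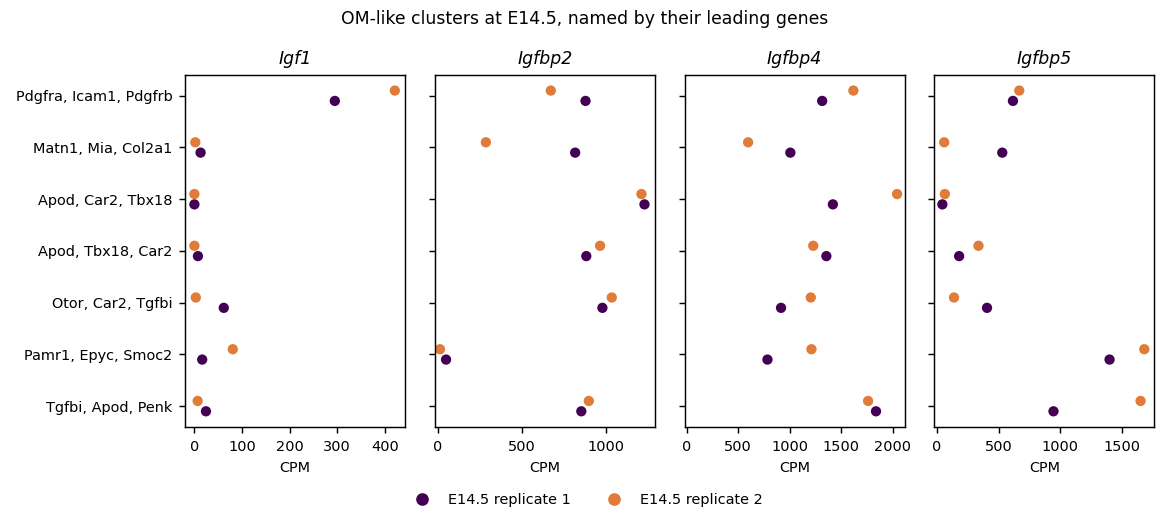
CPM of 4 genes in the 7 OM-like clusters of E14.5, 1 point per plate, each cluster named by its 3 leading genes. *Igf1* stands out in the cluster led by *Pdgfra*, and *Igfbp2* is near 0 in the cluster led by *Pamr1*.

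The next question was how the neurons change with age. In SGN-like cells from E14.5 to E17.5/E18.5, *Igf1r*, *Igfbp2*, *Igfbp4*, *Igfbp5* and *Igfbpl1* fell and *Igfbp3* rose. That is 1 of 9 genes higher and 5 lower, beside 12.5% higher and 8.98% lower among 17023 genes tested. The median log2 fold change was -0.90 for the 9 genes and 0.08 for all genes. From E17.5/E18.5 to P3, *Igfbp3* was called higher and *Igf1r*, *Igf2r*, *Igfbp4*, *Igfbp5* and *Igfbpl1* lower, 1 and 5 of 9, beside 15.1% and 14.7% of all genes, with medians of -1.24 and -0.09. Both comparisons share the E17.5/E18.5 plates.

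*Igf1r* was at 201 and 110.4 CPM on the E14.5 plates, 145 and 174 at E15.5 and 83.8, 76.0 and 83.5 at E16.5. It stood at 68.8 CPM at E17.5, 58.5 and 57.9 at E18.5 and 17.8 and 14.99 at P3. No plate from E16.5 on reached any plate of E14.5 or E15.5, and the P3 plates were lowest. The difference was -1.36 ± 0.21 (adjusted p = 0.00121) at the first step and -1.63 ± 0.23 (adjusted p = 0.000386) at the step to P3.

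*Igf2r* was at 37.8 and 67.8 CPM at E14.5, 37.5 at E17.5, 27.5 and 21.4 at E18.5 and 11.5 and 8.40 at P3. The E17.5 plate was close to the lower E14.5 plate, and the first step of -0.90 ± 0.32 (adjusted p = 0.0662) did not pass the test, though it did by DESeq2 at -0.91 (adjusted p = 0.0244). Without E14.5 replicate 1 it was -1.24 (adjusted p = 0.0403), and without E17.5 replicate 1 -1.12 (adjusted p = 0.0302). At P3 *Igf2r* fell by 1.24 ± 0.33 (adjusted p = 0.0158) on the log2 scale, a call lost without P3 replicate 2 at -1.06 (adjusted p = 0.13).

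Of the binding proteins, *Igfbp4* fell at both steps. Its plates read 233 and 192 CPM at E14.5, 138.8 and 139.05 at E15.5, 62.7, 54.9 and 93.9 at E16.5, 48.4 at E17.5, 65.1 and 58.6 at E18.5 and 16.2 and 10.8 at P3. The differences were -1.91 ± 0.24 (adjusted p = 0.000289) and then -1.80 ± 0.25 (adjusted p = 0.000398). *Igfbp5* kept its level to E16.5 and was all but lost at P3. It stood at 122 and 121 CPM at E14.5, 122, 125 and 134.9 at E16.5, 71.9 at E17.5, 67.7 and 58.8 at E18.5 and 6.71 and 2.81 at P3. *Igfbp5* changed by -0.90 ± 0.26 (adjusted p = 0.0304) at the first step and by -3.50 ± 0.31 (adjusted p = 3.27e-05) at the second, the largest fall of the 9 genes at P3, which was -4.30 (adjusted p = 8.28e-06) without P3 replicate 1. 71.9% of SGN-like cells had an *Igfbp5* read at E18.5 and 15.52% at P3, although P3 cells were read more deeply, and 66.0% and 10.4% after thinning.

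*Igfbp2* fell early and did not pass the test at P3. It was at 248 and 295 CPM at E14.5, 142 and 185 at E15.5 and 59.1, 51.6 and 154 at E16.5, where the highest value is the SS2_20 plate. At E17.5 it was at 56.3 CPM, at E18.5 at 34.8 and 25.4 and at P3 at 34.5 and 72.4. The steps were -2.84 ± 0.48 (adjusted p = 0.00183) and 0.76 ± 0.47 (adjusted p = 0.252). *Igfbpl1* was at 167 and 112 CPM at E14.5, 91.3 and 103 at E15.5, 108, 120.0 and 109 at E16.5, 105 at E17.5, 82.9 and 88.3 at E18.5 and 20.9 and 16.53 at P3. Its first step of -0.62 ± 0.18 (adjusted p = 0.0329) is small, and the drop at P3, -2.01 ± 0.20 (adjusted p = 6.01e-05), is larger.

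*Igfbp3* rose at both steps. It was at 1.95 and 5.61 CPM at E14.5, 3.02 and 3.60 at E15.5, 8.29, 9.71 and 5.92 at E16.5, 14.6 at E17.5, 22.6 and 23.4 at E18.5 and 67.3 and 62.7 at P3. From E15.5 on each stage lay above the one before without overlap. The differences were 2.41 ± 0.42 (adjusted p = 0.00236) and 1.97 ± 0.37 (adjusted p = 0.00212). The first was 3.36 (adjusted p = 0.000841) without E14.5 replicate 2 and 1.86 (adjusted p = 0.0123) without E14.5 replicate 1. A read of *Igfbp3* was found in 8.40% of SGN-like cells at E14.5, 22.2% at E17.5, 63.1% at E18.5 and 87.9% at P3. After thinning these shares were 6.30%, 20.8%, 53.4% and 80.4%. E14.5 and E17.5 are of series SS2_20, with fewer genes per cell than the series of E18.5 and P3. Thinning evens the depth only, and the part of the series in these shares was not tested.

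Glial markers rose in the SGN-like sums over the same stages. The 10 markers together were at 93.8 and 75.8 CPM at E14.5, 349.6 at E17.5, 4430.2 and 4030.4 at E18.5 and 4048 and 5573 at P3, with 1 of 10 at 0 on each E14.5 plate and none at 0 later. The median share of glial markers in SGN-like cells was 0.00138 and 0.000878 percent on the E14.5 plates and 0.00286 at E17.5. It was 0.392 and 0.401 percent at E18.5 and 0.423 and 0.590 at P3. A cut at each plate's own median therefore does not make glial markers equal between stages. The study describes glial contamination, greatest at E18.5, and removed genes that correlated with *Sox10* from its own data. *Igfbp3* was itself higher in glia-like than in SGN-like cells on the SS2_20 plates. How much of its rise in SGN-like sums is glial RNA was not tested. In SGN-like cells below their plate's median, *Igfbp3* differed by 3.28 (adjusted p = 0.00393) and 1.86 (adjusted p = 0.0243). In those cells *Igfbp5* lost its call at the first step, with -0.79 (adjusted p = 0.228), and *Igf2r* at the second, with -1.26 (adjusted p = 0.104).

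Stage and plate series overlap in this design. Stage and Cre driver overlap too, since the labels give TrkCcre for E14.5 replicate 2 and PVcre for every later plate. The study's methods name *Ntrk3* Cre for E14.5. The part of the driver in the changes from E14.5, in neurons or glia, was not tested. On SS2_20 plates alone the late group is the single E17.5 plate, which is assumed to vary like the other groups. There, *Igfbp2* at -2.29 (adjusted p = 0.00217) and *Igfbp4* at -2.16 (adjusted p = 0.00214) kept their calls. *Igf1r* at -1.21 (adjusted p = 0.104), *Igfbp3* at 1.93 (adjusted p = 0.296), *Igfbp5* at -0.78 (adjusted p = 0.063) and *Igfbpl1* at -0.43 (adjusted p = 0.464) kept their direction and did not pass. At P3 all plates are of series SS2_15, so age and series cannot be told apart there. The first-step calls of *Igfbp5* and *Igfbpl1* also ended when E18.5 replicate 1 was left out, at -0.92 (adjusted p = 0.067) and -0.55 (adjusted p = 0.0969), or E18.5 replicate 2, at -0.83 (adjusted p = 0.089) and -0.60 (adjusted p = 0.0871), or E14.5 replicate 1, at -0.87 (adjusted p = 0.112) and -0.28 (adjusted p = 0.361). Without E14.5 replicate 2 *Igfbp5* was at -0.91 (adjusted p = 0.0896). *Igfbp5* with the reporting summary's cell filter was at -0.77 (adjusted p = 0.0532) and *Igfbpl1* at Leiden resolution 2 at -0.56 (adjusted p = 0.0677).

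*Igf1* and *Igfbp7* were close to the limit of these sums in neurons. *Igf1* ran from 0 to 5.88 CPM and *Igfbp7* from 0 to 2.23 CPM over the 12 plates. At E14.5 a single cell gave all 31 *Igfbp7* reads of replicate 2, and replicate 1 had 0. Neither gene passed the test at either step by edgeR as designed. With the reporting summary's cell filter *Igf1* passed at P3, at 4.05 (adjusted p = 0.0168), as it did at Leiden resolution 2, at 3.99 (adjusted p = 0.0468), and *Igfbp7* passed at the first step (adjusted p = 0.0107). *Igfbp7* also passed there without E14.5 replicate 2 (adjusted p = 0.0417), which leaves 0 reads at E14.5.

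**Figure D3:**
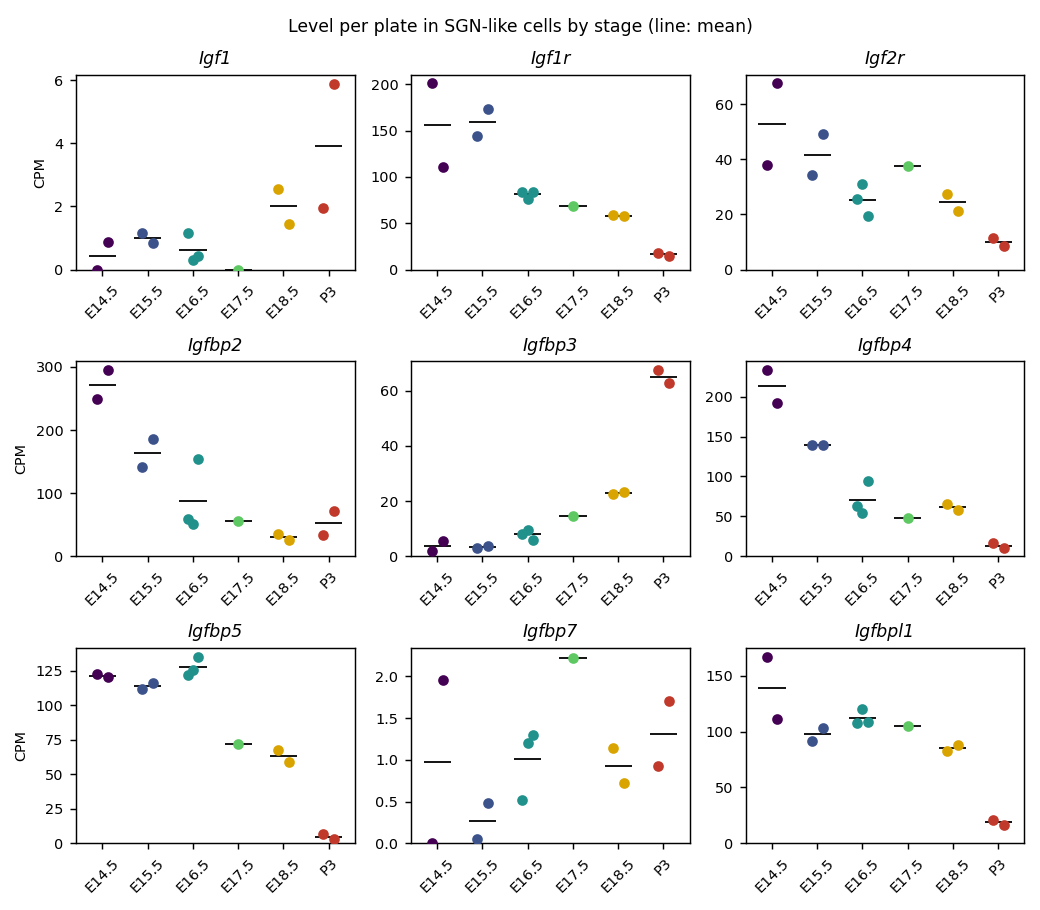
CPM of each of the 9 genes in SGN-like cells by stage, 1 point per plate, with a line at the mean of the stage. *Igfbp3* climbs from E15.5 to P3 while *Igf1r*, *Igfbp4*, *Igfbp5* and *Igfbpl1* are lowest at P3.

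Glia-like cells were compared over a shorter span than neurons. From E14.5 to E16.5/E17.5 on SS2_20 plates, *Igfbp5* alone was called, from 242 and 249.9 CPM at E14.5 to 116 at E16.5 and 131 at E17.5. That is -0.98 ± 0.13 (adjusted p = 0.0364), 0 higher and 1 lower of 9, beside 0.324% higher and 0.141% lower among 16341 genes. The *Igfbp5* call ended without E14.5 replicate 1 at -1.0 (adjusted p = 0.073), E14.5 replicate 2 at -0.96 (adjusted p = 0.084) or E15.5 replicate 2 at -0.98 (adjusted p = 0.055). *Igfbp4* read 585 and 489 CPM at E14.5, 434 and 388 at E15.5, 402 at E16.5 and 218 at E17.5. Its change of -0.78 ± 0.26 (adjusted p = 0.267) did not pass, but did by DESeq2 at -0.79 (adjusted p = 0.0367) and without the low-count filter at -0.78 (adjusted p = 0.00762), and without E16.5 replicate 3 it was -1.28 (adjusted p = 0.00637). Tested directly, the stage change in glia-like cells differed from that in SGN-like cells for 0 of the 9 genes by edgeR (0.0789% of 16474 genes called). Of the 9, *Igfbp2* (unadjusted p = 0.0165) and *Igfbp4* (unadjusted p = 0.00124, adjusted p = 0.133) were under 0.05 before adjustment.

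**Figure D4:**
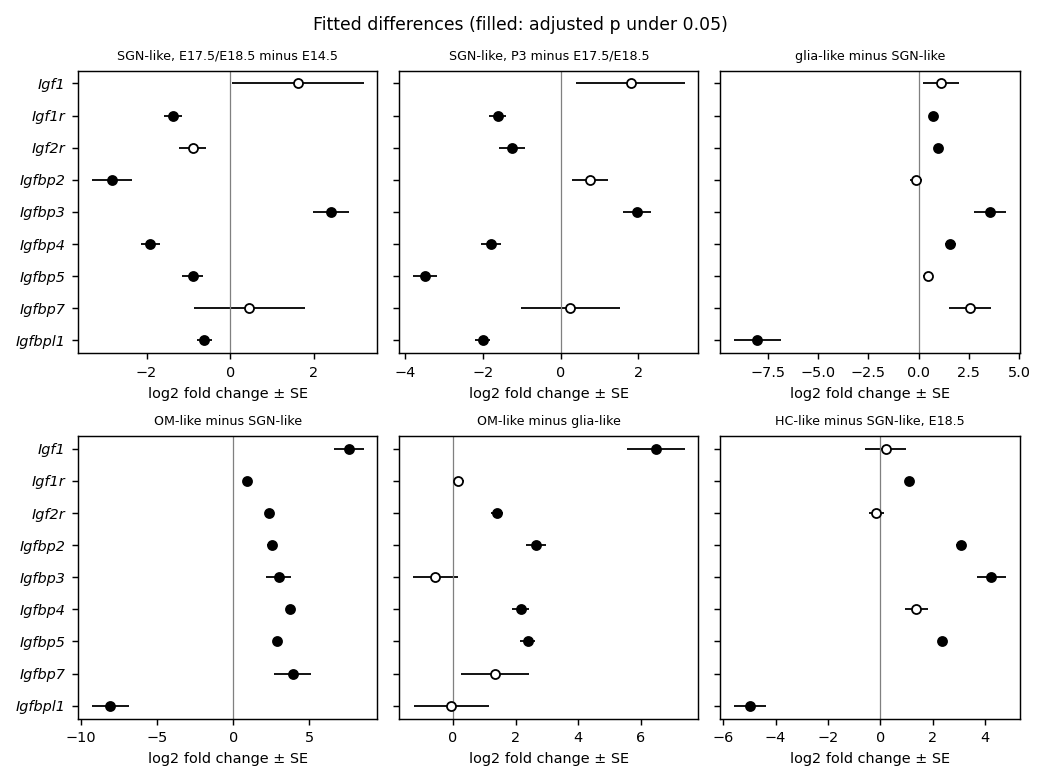
Fitted log2 fold changes with their standard errors for the 9 genes in 6 comparisons, filled where the adjusted p is under 0.05. The horizontal scales differ between panels, and *Igfbp7* is left out of the hair cell panel because both hair cell sums held 0 reads.

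The neurons were then taken by class. Type I neurons contact inner hair cells and are split into Ia, Ib and Ic, and type II neurons contact outer hair cells. No cluster could be named Ib-like, so type I stands for Ia-like and Ic-like here. The study reports Ib neurons and their high similarity to Ic neurons. The Ia-like, Ic-like or unnamed neurons here may therefore hold Ib cells. Class names come from markers other than the 9 genes.

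*Igfbpl1* was lower in Ic-like than in intermediate neurons at E16.5. At E16.5 it was at 188, 218 and 172 CPM in intermediate Ia/Ib/II-like neurons and at 33.8, 19.3 and 10.0 CPM in Ic-like neurons of the same 3 plates. The groups did not overlap, and the difference was -3.21 ± 0.30 (adjusted p = 0.0113). *Igfbp2* had the opposite order, with 80.7, 75.8 and 178 CPM in Ic-like and 26.1, 22.5 and 32.1 CPM in intermediate neurons, 1.97 ± 0.21 (adjusted p = 0.0163). These were the 2 genes called, 1 higher and 1 lower, beside 0.966% higher and 0.506% lower among 15009 genes. Neither level was particular to Ic-like neurons. Unspecialized SGN-like cells of E16.5 replicates 1 and 2 were at 33.1 to 34.0 CPM of *Igfbpl1* and 110 to 157 CPM of *Igfbp2*, and were not tested. In the neurons below the median share of glial markers the directions held and neither passed, at -2.41 (adjusted p = 0.119) for *Igfbpl1* and 1.61 (adjusted p = 0.461) for *Igfbp2*. Without E16.5 replicate 3 *Igfbp5* was also called, at -0.63 (adjusted p = 0.0016).

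At E18.5 and P3 the gap in *Igfbpl1* went on. Ia-like neurons were at 140.0 and 138 CPM at E18.5 and 38.2 and 23.9 at P3. Ic-like neurons were at 23.9 and 25.3 and 1.24 and 0.516 CPM at the same stages. Ic-like was lower on each of the 4 plates, -3.67 ± 0.50 (adjusted p = 0.00492) with the plate as a block, and this was the only one of 9 genes called (1.65% of 15673 genes higher, 2% lower). Without P3 replicate 1 *Igfbp5* was called too, at 2.24 (adjusted p = 0.00249). Without the block *Igfbpl1* was at -2.80 (adjusted p = 0.551). Reads of *Igfbpl1* were found in 87.6% of Ia-like and 9.87% of Ic-like cells at P3. The highest sums of *Igfbpl1* were those of E14.5: unspecialized SGN-like cells were at 424 and 247 CPM, against 45.1 and 82.6 in intermediate cells of the same plates, a pair of classes that was not tested.

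*Igfbp5* was highest in II-like neurons. At E18.5 II-like neurons were at 163 and 163 CPM, Ic-like at 125 and 91.3 and Ia-like at 18.3 and 26.2. At P3 II-like neurons of replicate 1 were at 72.0 CPM, Ic-like at 2.20 and 0.931 and Ia-like at 0.693 and 0.241. II-like exceeded every type I sum of the same stage. The difference from type I was 3.19 ± 0.73 (adjusted p = 0.022), the only gene of 9 called, beside 5.17% higher and 7.3% lower over all genes. Without the plate block it was 2.37 (adjusted p = 0.387), and without E18.5 replicate 2 4.10 (adjusted p = 0.0544). Without P3 replicate 1, the only plate with a II-like sum at P3, *Igfbp5* was at 1.69 (adjusted p = 0.00268), and without E18.5 replicate 1 at 4.11 (adjusted p = 0.0488). Without P3 replicate 2, 4 genes were called, *Igf1* at 2.65 (adjusted p = 0.0407), *Igfbp3* at -0.65 (adjusted p = 0.038) and *Igfbp4* at 1.60 (adjusted p = 0.0143) besides *Igfbp5*.

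*Igfbp4* pointed the same way in II-like neurons without passing the test. II-like neurons were at 68.6 and 108 CPM at E18.5 and 80.2 at P3, Ia-like at 31.2 and 33.6 and 10.3 and 15.7, and Ic-like at 53.7 and 53.7 and 13.0 and 4.16. The difference was 1.59 ± 0.46 (adjusted p = 0.0562), and it passed by DESeq2 at 1.61 (adjusted p = 0.0319), without the low-count filter at 1.59 (adjusted p = 0.0469), with the reporting summary's cell filter at 1.53 (adjusted p = 0.0335) and at Leiden resolution 2 at 1.67 (adjusted p = 0.0199). *Igfbp3*, at -0.64 ± 0.21 (adjusted p = 0.0786), passed by DESeq2 at -0.62 (adjusted p = 0.0287) and at Leiden resolution 2 at -0.73 (adjusted p = 0.034). Glial markers in II-like sums were at 5914 and 4703 CPM at E18.5, against 2302 and 3051 in Ia-like and 4644 and 4170.2 in Ic-like sums. In the neurons below the median share of glial markers *Igfbp4* was 2.53 (adjusted p = 0.0197) and *Igfbp5* 4.80 (adjusted p = 0.0178). The receptors differed little, *Igf1r* by 0.29 ± 0.15 (adjusted p = 0.243) and *Igf2r* by -0.05 ± 0.23 (adjusted p = 0.922).

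**Figure D5:**
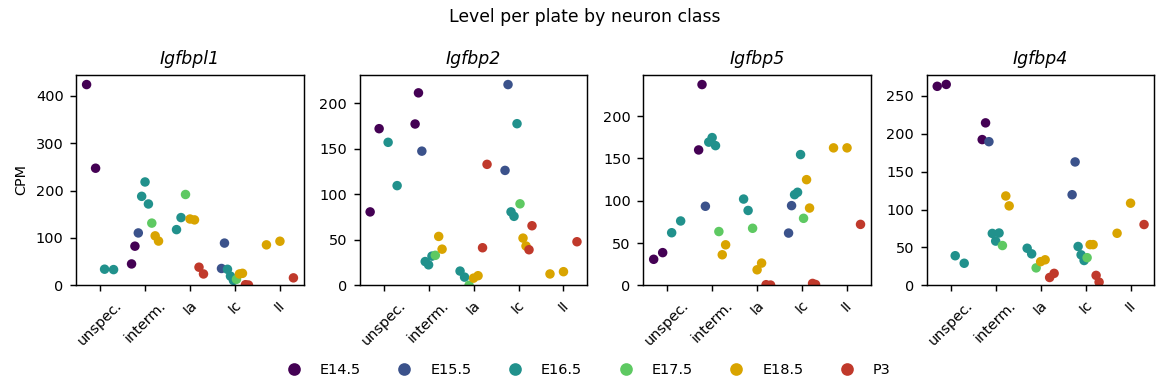
CPM of 4 genes by neuron class, 1 point per plate with at least 5 cells of the class, coloured by stage. *Igfbpl1* in Ic-like neurons lies below intermediate or Ia-like neurons of the same stage, and at P3 *Igfbp5* is seen in II-like neurons.

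Hair cells could be compared at E18.5 with 13 and 14 HC-like cells on the 2 plates. The study set vestibular hair cells apart from cochlear ones, and HC-like cells were not split in this way here. *Igfbp3* was at 643 and 230.1 CPM in HC-like and 22.6 and 23.4 in SGN-like cells, and *Igfbp5* at 310.5 and 346 and 67.7 and 58.8. *Igfbp2* was at 259 and 246 and 34.8 and 25.4 CPM, and *Igf1r* at 128 and 123 and 58.5 and 57.9. The sums of all 4 were higher in HC-like cells on both plates. For *Igfbp3* the median cell did not follow its sum. It held 10.6 CPM among HC-like cells and 11.9 among neurons of E18.5. A read of *Igfbp3* was found in 55.6% of the 27 HC-like cells, against 63.1% of neurons. Median cells of *Igfbp5* (189 against 27.9 CPM), *Igfbp2* (262 against 10.1) and *Igf1r* (150 against 51.5) were higher in the HC-like class. In the sums, the differences were 4.25 ± 0.55 (adjusted p = 0.00444) for *Igfbp3*, 2.38 ± 0.14 (adjusted p = 0.000534) for *Igfbp5*, 3.07 ± 0.20 (adjusted p = 0.000655) for *Igfbp2* and 1.11 ± 0.13 (adjusted p = 0.00301) for *Igf1r*. *Igfbpl1* was lower, at 4.95 and 0.819 CPM against 82.9 and 88.3, -4.98 ± 0.62 (adjusted p = 0.00381). *Igfbp7* was also called lower, with 0 reads in both HC-like sums and 1.14 and 0.723 CPM in SGN-like cells, where 3 reads in the HC-like sums would be 0.781 and 0.614 CPM, so no fold is given. That makes 4 higher and 2 lower of 9, beside 21.6% and 23.8% of 15901 genes. High sums of *Igfbp3*, *Igfbp5* and *Igf1r* were not particular to the HC-like class. The 43 unnamed cells of E18.5 held 698 to 750 CPM of *Igfbp3*, 892 to 1479 of *Igfbp5* and 149 to 155 of *Igf1r*. Their *Igfbp2*, at 86.1 to 120 CPM, was below the HC-like sums. The unnamed cells were not tested.

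Epithelial markers were also found in the HC-like sums. The 7 markers of cochlear epithelium were at 9826 and 5761 CPM in the HC-like sums and 17.4 and 16.3 in SGN-like, and their part in the result was not tested. The cell filter of the study's reporting summary asks for at least 2500 genes and 50000 counts per cell but allows up to 25% ERCC. With it *Igfbp2* did not pass the test, at 0.00 (adjusted p = 0.997), while *Igfbp3*, *Igfbp5*, *Igf1r* and *Igfbpl1* kept their calls. With that filter *Igf1* passed, at 5.76 (adjusted p = 0.0344), and the call of *Igfbp7* was lost (adjusted p = 0.124), as it was by DESeq2 (adjusted p = 0.0991). With the plate as a block *Igfbp4*, at 93.2 and 228 CPM in HC-like cells, was called with 1.25 (adjusted p = 0.0183), and *Igfbp7* was not. *Igfbp4* had 1.38 ± 0.43 (adjusted p = 0.0532) without the block, and passed by DESeq2 at 1.40 (adjusted p = 0.00729), without the low-count filter at 1.34 (adjusted p = 0.0322), at Leiden resolution 2 at 1.52 (adjusted p = 0.042) and below the median of glial markers at 2.05 (adjusted p = 0.012).

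The rest of the pathway was counted from a list of 56 other genes. In OM-like against SGN-like cells 16 were higher and 16 lower of 53 tested, beside 27.3% and 25.9% of all genes. In glia-like against SGN-like cells 16 were higher and 18 lower, beside 27.2% and 24.7%, and in OM-like against glia-like 12 higher and 6 lower, beside 12.1% and 12%. *Igf2*, the second ligand, was at 527 to 1379.9 CPM in OM-like, 33.5 to 102 in glia-like and 1.09 to 14.8 in SGN-like cells, OM-like over SGN-like by 7.50 ± 0.61 (adjusted p = 4.42e-07). Among these 3 classes OM-like cells held the most of both ligands. Of the receptor adaptors, *Grb10*, which dampens the receptors, was at 440.1 to 1131 CPM in glia-like and 4.32 to 51.1 in SGN-like cells, 5.57 ± 0.35 (adjusted p = 5.22e-08). *Grb10* was also the only listed gene called with stage in glia-like cells, -1.19 ± 0.11 (adjusted p = 0.0244).

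In neurons 4 of 53 listed genes rose and 3 fell from E14.5 to E17.5/E18.5, beside 12.5% and 8.98% of all genes. To P3, 9 rose and 10 fell, beside 15.1% and 14.7%. *Pappa*, which encodes the protease PAPP-A, was at 0.802 and 7.75 CPM at E14.5, 25.5 and 5.78 at E15.5, 142, 125 and 105 at E16.5, 315 at E17.5, 210.1 and 215 at E18.5 and 169 and 125 at P3. Every plate from E16.5 on was above every earlier one, 5.85 ± 0.82 (adjusted p = 0.000613). RNA of *Igfbp4*, which encodes a substrate of PAPP-A, fell over the same step, as given above. Cutting of the protein was not measured, and a link between the 2 genes was not tested. *Irs1*, an adaptor of the receptor, rose by 1.85 ± 0.41 (adjusted p = 0.00891) and the insulin receptor gene *Insr* fell by 0.68 ± 0.14 (adjusted p = 0.00713) on the log2 scale. *Insrr*, an orphan relative of the receptors, was at 25.4 and 8.19 CPM at E14.5 and at 0 or close to it at E17.5 and E18.5.

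At P3 the protease gene *Htra1* rose in neurons, from 6.88 and 6.39 CPM at E18.5 to 77.6 and 48.0, 4.03 ± 0.96 (adjusted p = 0.00872). It was at 32.9 and 30.4 CPM at E18.5 in II-like neurons and 232 at P3, above type I by 2.26 ± 0.28 (adjusted p = 0.00163). *Irs2*, the other main adaptor, fell by 1.66 ± 0.20 (adjusted p = 0.000163) on the log2 scale, and *Hras*, of the MAPK arm, rose by 1.38 ± 0.16 (adjusted p = 0.000146). In II-like neurons 2 of 53 listed genes were higher and 3 lower than in type I, beside 5.17% and 7.3% of all genes, and in Ic-like against Ia-like 1 and 1, beside 1.65% and 2%. At the E16.5 split 1 of 49 was higher and 0 lower, beside 0.966% and 0.506%, and in HC-like cells 7 of 50 were higher and 18 lower, beside 21.6% and 23.8%.

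Genes with a similar course were sought over 30 sums of SGN-like, glia-like, OM-like and HC-like cells, by Pearson r of log2(CPM + 1) among 17858 genes. Points share plates, so r is a description. *Igfbp4* was closest to *Shc1* (r = 0.960), an adaptor of the receptor, and *Ptk7* (0.955), and *Igfbp5* to *Shc1* (0.912). *Igfbp2* went with *Etv1* (0.933), *Igf1r* with *Golm1* (0.952) and *Igf2r* with *Limd2* (0.934). *Igfbpl1* followed neuronal genes, *Shisa7* (0.970) and *Vgf* (0.969). *Igf1* was closest to *Abca9* (0.945), *Igfbp3* to *Tanc1* (0.840) and *Igfbp7* to *Fkbp7* (0.800).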

How the data were processed

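Single tdTomato-positive cochlear cells were sequenced by the authors with Smart-seq2, which has no molecular identifiers. Reads were aligned with STAR to mm10 with ERCC spike-ins, and the deposited table holds whole-number counts of uniquely mapped reads per gene and cell. Per the labels, Scanpy was among the tools; whether counting used strand is not given in the sources used here. Of 4992 wells, 384 on 1 plate without a sample were not used. Cells with over 1000 genes and under 5% ERCC counts were kept, with a median of 232473 to 1092427 counts per cell over plates. Reads are not independent molecules, and p-values measure the spread between plates.

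Cells were clustered by stage (E17.5 with E18.5) with scanpy 1.11.5 and leidenalg 0.10.2: 10000 counts per cell, 2000 variable genes without the pathway list, 30 components, 30 neighbours and resolution 1. A cluster took the name of its best marker list, with at least 3 markers detected, and stayed unnamed where another class led its top genes. A small cluster was also left unnamed after it was seen. No doublet caller was run, and the 5% of cells with the highest counts were left out as an alternative. Counts were summed per class and plate (at least 5 cells), scaled by TMM, filtered with filterByExpr and tested with edgeR 4.0.16 (quasi-likelihood, limma 3.58.1, R 4.3.3), with Benjamini-Hochberg adjustment over all genes and a threshold of 0.05. Values after ± are standard errors for log2 fold changes. Plate was a block between classes, except for hair cells, since sums of 1 plate come from the same animals. DESeq2 1.42.0 was an alternative. The test of stage by class, the fit on SS2_20 plates and the fit with unnamed P3 cells were chosen after seeing the data. The steps were tested on simulated data.

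The members and lists were chosen with earlier results of these data known. All 9 members are named in every comparison. Of 56 other pathway genes, up to 3 called per direction with the largest change were eligible to be named. The 3 most similar genes per member were eligible. Some results that fall under these rules are not reported here.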

Additional observations from a re-analysis of the deposited data

Results flagged for a closer look

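Over 27 sets of 6 SS2_20 plates, 1 gene in 1 class each, 4 held a plate far from the others by Dixon's test, where chance gives about 1 in 20. *Igfbp5* in SGN-like cells was lowest at E17.5, at 71.9 CPM. *Igfbpl1* in SGN-like cells was highest on E14.5 replicate 1, at 167 CPM. *Igfbp7* in OM-like cells stood at 86.9 CPM on E15.5 replicate 2, where 1 cell gave 58.9% of the reads. *Igfbpl1* in OM-like cells stood at 4.26 CPM on E16.5 replicate 3. The stages differ between these plates.

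Classes outside the comparisons also held reads of these genes, above the highest SGN-like, glia-like or OM-like sum of the same stage on both plates. In the 13 cochlear epithelium-like cells of E15.5 the lower plate held 325.5 CPM of *Igf1r*, 665.5 of *Igfbp3* and 1180.0 of *Igfbp5*, against 239.6, 77.7 and 1075 CPM. In the 17 immune-like cells of E14.5 the lower plate held 959 CPM of *Igf1*, 152 of *Igfbp3*, 1659 of *Igfbp4* and 55.9 of *Igfbp7*, against 63.6, 124.5, 1414 and 5.66 CPM. The 12 OM markers summed to 19946 and 24244 CPM in the immune-like sums, and their part in these values was not tested.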

How the results depend on the processing

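Of the values that passed the threshold, 568 recomputed values stayed past it in the same direction and 28 kept the direction and lost it. Of those that did not pass, 506 kept direction and side, 34 passed, and 56 changed sign, none of them past the threshold in the reported fit. The tally includes fits that leave out a plate in neither group of the comparison, where a value can move little. For *Igf1r* in neurons from E14.5, such fits gave -1.38 without P3 replicate 1 and -1.35 without E15.5 replicate 1. Causes were not tested.

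The number of the 9 genes called moved over 1.5 times in 5 comparisons. For glia-like cells with stage it was 2 by DESeq2 and 2 without the low-count filter, and 0 to 2 over plates left out. For II-like against type I it was 3 by DESeq2, 2 without the filter, 2 with the reporting summary's cell filter, 3 at Leiden resolution 2, 2 below the median of glial markers, and 0 to 4 over plates left out. For Ic-like against Ia-like it was 1 to 2 over plates left out, and at the E16.5 split 0 below the median of glial markers. On SS2_20 plates alone, a choice made after seeing the data, 2 genes were called from E14.5 to E17.5. Adding the unnamed P3 cells, also chosen later, did not move a count over 1.5 times.

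Over all genes, the number called also moved over 1.5 times. By DESeq2 it was 1044 in place of 76 for glia-like cells with stage, 3113 in place of 1954 for II-like against type I, 1407 in place of 572 for Ic-like against Ia-like and 758 in place of 221 at the E16.5 split. Below the median of glial markers the last 3 were 687, 227 and 10, and without the plate block the numbers were 475 for II-like against type I and 122 for Ic-like against Ia-like. Glia-like cells with stage gave 614 without the low-count filter, 21 without E14.5 replicate 2 and 324 without E16.5 replicate 3. From E14.5 in neurons 3663 became 831 on SS2_20 plates and 2405 without E18.5 replicate 2, and at P3 5077 became 3130 without P3 replicate 1 and 2812 without P3 replicate 2. For II-like against type I it was 1149 without P3 replicate 1, 752 without E18.5 replicate 1 and 698 without E18.5 replicate 2. For Ic-like against Ia-like it was 330 without P3 replicate 2, 201 without E18.5 replicate 1 and 197 without E18.5 replicate 2, and at the E16.5 split 1120 without E16.5 replicate 3.

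Plate was the block, since the classes of a plate come from the same pooled animals. Without the replicate block 0 genes were called for II-like against type I and 0 for Ic-like against Ia-like, and the counts were 5, 9, 5 and 2 for the other blocked comparisons. With a block for hair cells it was 6. Without the block the sign turned for *Igfbpl1* in OM-like against glia-like cells (0.52), for *Igf2r* (0.07) and *Igfbp7* (-0.25) in II-like against type I, and for *Igfbp2* (-0.03) and *Igfbp7* (-0.01) in Ic-like against Ia-like neurons.

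Other signs turned for values that had not passed. At Leiden resolution 2 these were *Igf1* (-0.44) and *Igfbp7* (-0.41) in neurons from E14.5, *Igfbpl1* in OM-like against glia-like cells (1.16) and in glia with stage (4.23), *Igfbp4* (-0.32) and *Igfbp7* (-1.44) in Ic-like against Ia-like, and *Igf1r* (0.11), *Igfbp3* (0.15) and *Igfbp7* (-0.26) at the E16.5 split. With the reporting summary's filter they were *Igfbpl1* in OM-like against glia-like (1.13) and in glia with stage (4.24), *Igfbp4* (-0.03) and *Igfbp7* (-0.59) in Ic-like against Ia-like, *Igfbp7* at the E16.5 split (-0.25) and *Igfbp4* in hair cells (-2.64). Below the median of glial markers they were *Igf1* (-5.72) and *Igfbp7* (-6.00) in II-like against type I, *Igf1* in Ic-like against Ia-like (2.48), *Igf2r* (-0.34) and *Igfbp3* (0.19) at the E16.5 split and *Igf2r* in hair cells (0.08). Without the 5% of cells with the highest counts it was *Igf2r* in II-like against type I (0.02), on SS2_20 plates *Igf1* in neurons (-5.99), and on all plates with 2 or more classes *Igfbp2* in glia-like against SGN-like cells (0.10).

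Over plates left out in turn, signs turned within these ranges. In Ic-like against Ia-like neurons *Igf1* ran from -2.14 to 0.09, *Igfbp4* from -0.23 to 0.61 and *Igfbp7* from -0.30 to 0.82. In II-like against type I *Igf2r* ran from -0.32 to 0.11 and *Igfbp7* from -0.26 to 1.07. At the E16.5 split *Igf1r* ran from -0.10 to 0.05, *Igfbp3* from -1.14 to 0.27 and *Igfbp7* from -0.13 to 1.43. In glia with stage *Igf1* ran from -0.26 to 1.29, *Igfbp2* from -0.49 to 0.16, *Igfbp3* from -1.36 to 0.03 and *Igfbpl1* from -4.24 to 3.31. *Igfbp2* in glia-like against SGN-like cells ran from -0.30 to 0.11, *Igfbpl1* in OM-like against glia-like from -1.85 to 0.97, and *Igfbp7* in neurons from -0.54 to 9.73 from E14.5 and from -0.27 to 0.78 at P3. The 9.73 is the fit without E14.5 replicate 2, where the remaining E14.5 plate has 0 reads. Plates were not left out for hair cells, where no residual degrees of freedom would remain. *Igf1* and *Igfbp7* in neurons rest on few cells at this depth.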
